A study of Mus musculus with 12 samples.

Results

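RNA-seq of whole liver was used to follow 4 genes, *Clec2h*, *Rfx4*, *Nrep* and *C330021F23Rik*, in mice with and without the aryl hydrocarbon receptor (AhR) in hepatocytes. The 4 genes were picked from the 24532 genes of the table because their read counts were among those lowered most in *Ahr* HKO livers against WT livers on the control diet. All 4 passed the filter on low counts, which kept 14038 genes. The low level in *Ahr* HKO livers on the control diet is therefore a property by which the genes were chosen and is given as a description. The comparison of both genotypes on the ethanol diet uses none of the livers that chose them.

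The study has 12 livers in 4 groups of 3, from male C57BL/6 mice that were 10 to 12 weeks old when feeding began. *Ahr* HKO mice carried *Ahr* fl/fl and the *Alb-Cre* transgene, whose albumin promoter drives Cre in hepatocytes, to remove exon 2 of *Ahr* there. The study reported the deletion as specific to hepatocytes. WT mice were *Ahr* fl/fl littermates without Cre, so both genotypes carried the floxed allele. The control groups (WT-con and *Ahr* HKO-con) received a liquid diet with matched calories, and the ethanol groups (WT-EtOH and *Ahr* HKO-EtOH) a Lieber-DeCarli liquid diet with 5% ethanol by volume, or 36% of its calories. Feeding lasted 5 weeks.

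AhR is a ligand-activated transcription factor that pairs with ARNT on DNA and is known in liver for inducing genes of xenobiotic metabolism such as *Cyp1a1* and *Cyp1a2*. The 4 genes belong to no common pathway. *Clec2h* encodes Clr-f, a C-type lectin of the natural killer gene complex that binds a receptor of the NKR-P1 family. *Rfx4* encodes a winged-helix transcription factor of the regulatory factor X family, known from brain and testis, and RFX factors are known for controlling genes of the cilium. *Nrep* encodes P311, a small protein known from regenerating neurons and linked to TGF-beta signaling. *C330021F23Rik* is named Rps23rg1 in RefSeq, after a retrogene of ribosomal protein S23.

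*Clec2h* lies on the plus strand of chromosome 6 (chr6:128662385-128677374 in GRCm38), *Rfx4* on the plus strand of chromosome 10 (chr10:84756036-84906538) and *C330021F23Rik* on the plus strand of chromosome 8 (chr8:3567998-3584776). RefSeq promoter sequences of GRCm38.p6, from 250 bases before to 50 bases after an annotated start, were matched to these 3 genes by gene identifier. They are printed because the genes were low together in *Ahr* HKO-con livers. No window is given here for *Nrep*. *Rfx4* has 2 such windows. They are read 5′ to 3′ on the plus strand, at chr6:128662135-128662434 for *Clec2h*, at chr10:84755798-84756097 and chr10:84837898-84838197 for *Rfx4* and at chr8:3567748-3568047 for *C330021F23Rik*. Capitals mark a match to CCAAT.
Clec2h promoter: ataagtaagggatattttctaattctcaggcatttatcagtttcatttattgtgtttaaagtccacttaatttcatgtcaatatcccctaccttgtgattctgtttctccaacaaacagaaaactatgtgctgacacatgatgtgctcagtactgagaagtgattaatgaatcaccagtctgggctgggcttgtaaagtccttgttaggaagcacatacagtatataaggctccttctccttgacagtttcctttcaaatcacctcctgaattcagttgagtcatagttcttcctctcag
Rfx4 promoter 1: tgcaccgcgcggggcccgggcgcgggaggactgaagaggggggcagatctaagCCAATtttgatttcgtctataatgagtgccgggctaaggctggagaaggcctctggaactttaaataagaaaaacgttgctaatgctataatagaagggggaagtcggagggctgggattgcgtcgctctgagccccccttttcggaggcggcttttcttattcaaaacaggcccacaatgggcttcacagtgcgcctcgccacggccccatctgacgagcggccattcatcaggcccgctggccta
Rfx4 promoter 2: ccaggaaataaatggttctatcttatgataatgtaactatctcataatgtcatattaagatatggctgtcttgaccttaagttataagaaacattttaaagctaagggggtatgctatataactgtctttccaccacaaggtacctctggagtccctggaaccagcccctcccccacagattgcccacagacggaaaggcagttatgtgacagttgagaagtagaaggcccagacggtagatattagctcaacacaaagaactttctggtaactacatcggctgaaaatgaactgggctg
C330021F23Rik promoter: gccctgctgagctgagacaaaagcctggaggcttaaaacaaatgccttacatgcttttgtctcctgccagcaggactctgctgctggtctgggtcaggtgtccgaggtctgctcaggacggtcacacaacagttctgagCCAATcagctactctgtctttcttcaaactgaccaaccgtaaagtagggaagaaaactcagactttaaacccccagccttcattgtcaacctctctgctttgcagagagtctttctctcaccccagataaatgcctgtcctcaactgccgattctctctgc

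The windows were searched on both strands for 4 short motifs. The core of the AhR response element, GCGTG, was found in 0 of the 4 windows and in 32.4% of the 32851 promoters of the same length. The exact letters TATAAA, a form of the TATA box, were found in 0 of 4 windows and in 13.6% of all promoters. Looser forms of the TATA box were not searched. Related stretches occur in more than a single window, such as tatataag in that of *Clec2h* and tatataac in the second of *Rfx4*. The STAT site TTCNNNGAA was found in 0 of 4 windows and in 8.3% of all promoters. CCAAT was found once in the *C330021F23Rik* window, at position -111 from the start, and once in the first *Rfx4* window, at position -197, against 37.4% of all promoters. None of the motifs is contained in another. GC content was 38.0% for *Clec2h*, 57.0% and 42.0% for *Rfx4* and 50.3% for *C330021F23Rik*, with a median of 52.7% over all promoters. A match is a stretch of letters, and its absence from a window says nothing of the factor.

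Depth and labels were checked first. The libraries held 46306518 to 74336255 reads counted on genes, so that 3 counts, taken as the smallest detectable level, corresponded to 0.0425 to 0.0676 CPM, the read count scaled to library size. The marker sum of hepatocytes was 101100 to 156200 CPM per liver. Reads counted on *Ahr*, the targeted gene, went against the labels: they were 16.6 to 20.1 CPM in the WT-con libraries and 41.3 to 65.5 CPM in those labelled *Ahr* HKO-con (log2 FC 1.63, SE 0.188, edgeR adjusted *P* = 0.00164). On the ethanol diet *Ahr* was 20.8 to 30.5 CPM in WT and 24.7 to 41.8 CPM in the libraries labelled *Ahr* HKO (log2 FC 0.40, edgeR adjusted *P* = 0.316). *Cyp1a2*, a target of AhR, was lower in the libraries labelled *Ahr* HKO, at 154 ± 91.2 CPM against 490 ± 114 CPM in WT-con (mean ± SD, n = 3, log2 FC -1.67, edgeR adjusted *P* = 0.0197), a call lost without *Ahr* HKO-con replicate 2 or WT-con replicate 1. It was the 1 gene called lower among 10 tested AhR target genes on the control diet. Of these genes 1 was called higher, and the median log2 FC was 0.00. Of all tested genes, 19.9% were called in either direction on that diet and 10.1% were called lower. The read counts are per gene and do not resolve exon 2, so they do not check the deletion, which the study examined by PCR and immunoblot. Every direction between genotypes given here rests on the labels. Below, *Ahr* HKO-con and *Ahr* HKO-EtOH stand for the libraries labelled so.

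On the control diet, the 4 genes were 13.9-fold to 48.2-fold lower by mean CPM in the *Ahr* HKO-con libraries than in WT-con. With ethanol their means were higher in the *Ahr* HKO libraries and lower in WT, and on the ethanol diet the genotypes differed in opposite directions from gene to gene. *Clec2h* was higher in *Ahr* HKO-EtOH than in WT-EtOH, *Rfx4* was lower and *Nrep* had nearly equal means, and none of the 4 passed adjustment over all tested genes. In whole liver, fewer cells of a type and less RNA per cell cannot be told apart.

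*Clec2h*, the lectin-like ligand, was measured at 18.4, 9.19 and 11.2 CPM in the WT-con livers 1, 2 and 3. In WT-EtOH it was 0.0755, 2.73 and 1.72 CPM. In *Ahr* HKO-con it was 0.0653, 0.256 and 0.484 CPM. These 3 *Ahr* HKO-con values rest on 4, 15 and 24 reads, and the lowest WT-EtOH value on 4 reads. In *Ahr* HKO-EtOH it was 5.58, 10.96 and 5.25 CPM. WT-con and *Ahr* HKO-EtOH were the high groups and overlapped each other, and WT-EtOH and *Ahr* HKO-con were the low groups and overlapped each other. Every liver of the high groups lay above every liver of the low groups. The mean was 12.9 ± 4.82 CPM (SD, n = 3) in WT-con, 7.27 ± 3.20 in *Ahr* HKO-EtOH, 1.51 ± 1.34 in WT-EtOH and 0.268 ± 0.210 in *Ahr* HKO-con.

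*Rfx4*, the transcription factor, was measured at 7.25, 5.36 and 5.07 CPM in WT-con. In WT-EtOH it was 4.17, 2.40 and 1.66 CPM. In *Ahr* HKO-con it was 0, 0.512 and 0.161 CPM. The liver at 0 had no read of *Rfx4*, which allows up to 3 counts or 0.0490 CPM. In *Ahr* HKO-EtOH it was 1.73, 0.741 and 0.902 CPM. WT-con was above every liver of the other groups and *Ahr* HKO-con below every liver of the other groups. WT-EtOH and *Ahr* HKO-EtOH overlapped by the single pair 1.66 and 1.73 CPM. The mean was 5.89 ± 1.18 CPM (SD, n = 3) in WT-con, 2.74 ± 1.29 in WT-EtOH, 1.12 ± 0.530 in *Ahr* HKO-EtOH and 0.224 ± 0.262 in *Ahr* HKO-con.

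*Nrep*, the small protein P311, is encoded on the minus strand of chromosome 18 (chr18:33437019-33464365 in GRCm38). It was measured at 6.27, 22.2 and 13.6 CPM in WT-con. In WT-EtOH it was 4.29, 10.8 and 9.04 CPM. In *Ahr* HKO-con it was 0.555, 0.990 and 1.47 CPM. These livers were below all the others. In *Ahr* HKO-EtOH it was 5.27, 10.1 and 7.31 CPM. WT-con, WT-EtOH and *Ahr* HKO-EtOH overlapped one another, and WT-con spread 3.55-fold from its lowest to its highest liver. The mean was 14.0 ± 7.98 CPM (SD, n = 3) in WT-con, 8.05 ± 3.37 in WT-EtOH, 7.55 ± 2.41 in *Ahr* HKO-EtOH and 1.01 ± 0.459 in *Ahr* HKO-con.

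*C330021F23Rik*, the retrogene of ribosomal protein S23, was measured at 2.45, 1.499 and 2.09 CPM in WT-con. In WT-EtOH it was 0.415, 0.254 and 0.446 CPM. In *Ahr* HKO-con it was 0.229, 0.0512 and 0.101 CPM, from 14, 3 and 5 reads. The second of these livers was at the limit of 3 counts, and the group lay below all other livers. In *Ahr* HKO-EtOH it was 1.64, 0.401 and 0.496 CPM. One *Ahr* HKO-EtOH liver reached the range of WT-con and the other two lay near WT-EtOH, so that *Ahr* HKO-EtOH overlapped both. The mean was 2.01 ± 0.477 CPM (SD, n = 3) in WT-con, 0.847 ± 0.692 in *Ahr* HKO-EtOH, 0.372 ± 0.103 in WT-EtOH and 0.127 ± 0.0915 in *Ahr* HKO-con.

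**Figure D1:**
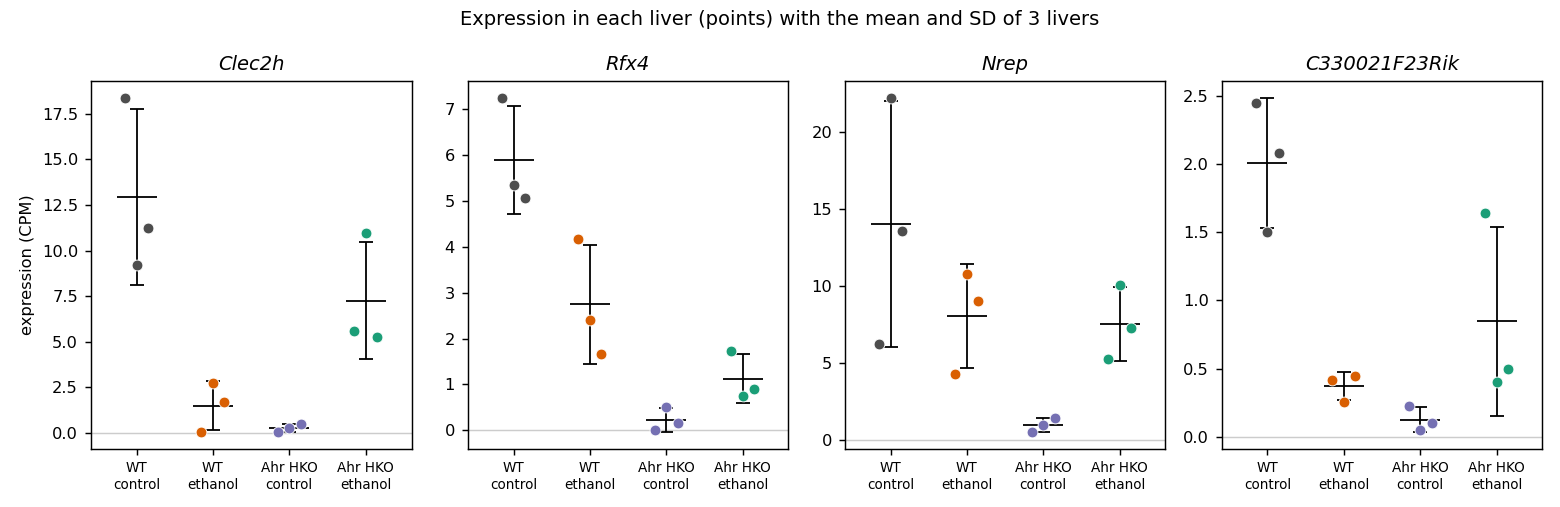
Expression of the 4 genes (CPM, y axis, a linear scale of its own in each panel) in each of the 12 livers (points, 3 a group) with the mean (horizontal line) and SD (bars). WT-con is the highest group by mean in every panel and *Ahr* HKO-con the lowest, while the 2 ethanol groups change places between *Clec2h* (7.27 CPM in *Ahr* HKO-EtOH, 1.51 in WT-EtOH) and *Rfx4* (1.12 and 2.74).

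Levels can be compared between genes per length only. On the FPKM scale, the levels in WT-con were 6.03 ± 3.39 for *Nrep*, 5.66 ± 2.14 for *Clec2h*, 1.41 ± 0.289 for *Rfx4* and 1.17 ± 0.284 for *C330021F23Rik* (mean ± SD, n = 3). The first pair overlapped, and the last pair overlapped. In *Ahr* HKO-con the levels were 0.430 ± 0.182 FPKM for *Nrep*, 0.116 ± 0.0868 for *Clec2h*, 0.0698 ± 0.0526 for *C330021F23Rik* and 0.0552 ± 0.0661 for *Rfx4*.

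On the control diet, which chose the genes, the log2 FC of *Ahr* HKO-con against WT-con was -5.62 (SE 0.563) for *Clec2h*, -4.70 (SE 0.792) for *Rfx4*, -3.94 (SE 0.514) for *C330021F23Rik* and -3.81 (SE 0.540) for *Nrep*. Without *Ahr* HKO-con replicate 2 the *Rfx4* value was -6.26, and without *Ahr* HKO-con replicate 1 that of *C330021F23Rik* was -4.70. The groups did not overlap for any of the 4, as for 24.1% of the tested genes in this direction. Ranked among genes that passed an adjusted *P* of 0.05, had no overlap and averaged 50 counts or more, these were places 1, 2, 4 and 5 of the lowest. Place 3 was held by *Cyp7a1*, the rate-limiting enzyme of bile acid synthesis (log2 FC -4.33), which is not among the 4. The next places outside were *Hsd3b5*, a hydroxysteroid dehydrogenase (log2 FC -3.78), and *Rdh18-ps* (log2 FC -3.58). *Nrep* and *Hsd3b5* thus differed by less than the SE of either. By log2 FC alone, with no demand on counts or overlap, the 4 genes were at places 21, 35, 47 and 52 of the tested genes.

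On the ethanol diet the genotypes were compared with livers that took no part in the choice. *Clec2h* was 4.76-fold higher in *Ahr* HKO-EtOH than in WT-EtOH, with a log2 FC of 2.25 (SE 0.864, 95% confidence interval 0.22 to 4.28, edgeR unadjusted *P* = 0.0344, adjusted *P* = 0.203). It was higher in all 3 *Ahr* HKO-EtOH livers than in every WT-EtOH liver, as were 13.7% of the tested genes. *Rfx4* was 2.42-fold lower, with a log2 FC of -1.28 (SE 0.446, interval -2.32 to -0.23, edgeR unadjusted *P* = 0.0237, adjusted *P* = 0.172). Its groups overlapped by 1 liver on each side.

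*C330021F23Rik* had a log2 FC of 1.19 on the ethanol diet (SE 0.613, interval -0.25 to 2.64, edgeR adjusted *P* = 0.309). This value rested on the *Ahr* HKO-EtOH liver 1, at 1.64 CPM, and was 0.28 without it. *Nrep* had a log2 FC of -0.09 (SE 0.376, interval -0.98 to 0.79, edgeR adjusted *P* = 0.907). Its interval corresponds to 0.508-fold to 1.73-fold, and the sign turned when single livers were left out. The leave-one-out values of *Clec2h* were 1.70 to 3.01, with the lowest without the WT-EtOH liver 1, and those of *Rfx4* -1.73 to -0.85, with the smallest difference without the WT-EtOH liver 1.

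With thresholds of 0.05 for adjusted *P* and 1.5 for FC, edgeR called 0 of the 4 genes on the ethanol diet, with 1.06% of all tested genes called. DESeq2 also called 0 of 4, with 7.46% of the genes it gave an adjusted *P* value called, and its lowest among the 4, 0.057, was for *Rfx4*. At an unadjusted *P* value under 0.05 and an FC above 2, 2 of the 4 passed, *Clec2h* upward and *Rfx4* downward, against 1.68% and 4.45% of the tested genes in these directions. Over all tested genes the median log2 FC was -0.01, and 90% of the values lay between -1.20 and 0.68. *Clec2h* and *C330021F23Rik* lay above this range and *Rfx4* below it, whereas *Nrep* lay near its middle.

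**Figure D2:**
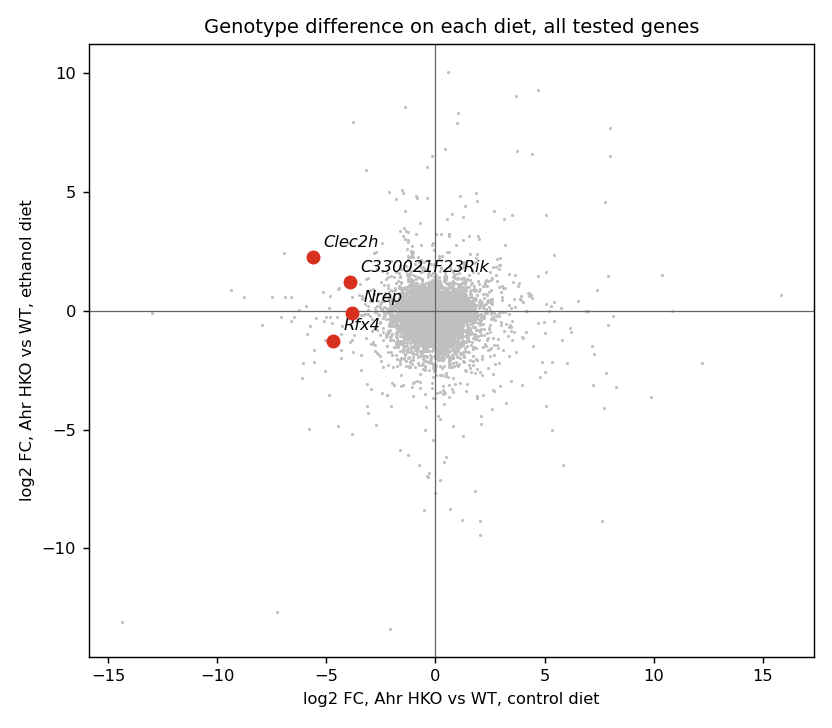
Log2 FC of *Ahr* HKO against WT on the control diet (x axis) and on the ethanol diet (y axis) for the tested genes (grey) and the 4 genes (red). The 4 genes lie far to the left, where they were chosen (-5.62 to -3.81), and spread from -1.28 to 2.25 on the y axis. Both axes use separate livers.

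The spread of the 4 genes on the ethanol diet can be set beside the other genes called lower in *Ahr* HKO-con. These were 1413 genes without the 4, called by adjusted *P* (under 0.05) and FC (above 1.5), with 10.1% of the tested genes called in this direction. With ethanol feeding, edgeR called 15 of them higher and 8 lower in *Ahr* HKO, against 96 higher and 53 lower of all 14034 tested genes without the 4, and the median log2 FC was 0.00. A positive log2 FC was found for 708 of them (50.1%), against 48.9% of all tested genes without the 4. Of the 38 that were lower by more than 8-fold on the control diet, 1 was called higher and 1 lower on the ethanol diet, with a median of -0.25 and a positive log2 FC for 14. The 4 genes had 2 positive and 2 negative values.

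The response to ethanol was next described within each genotype. Both diet comparisons share livers with the contrast that chose the genes: high WT-con values favor a fall in WT, and low *Ahr* HKO-con values favor a rise in *Ahr* HKO. The values are therefore given without a test. In WT, the log2 FC of ethanol against control was -3.06 (SE 0.827) for *Clec2h*, -2.42 (SE 0.348) for *C330021F23Rik*, -1.10 (SE 0.336) for *Rfx4* and -0.78 (SE 0.489) for *Nrep*. The first 3 did not overlap between diets, which 16.6% of the tested genes shared in this direction, and *Nrep* overlapped. WT-EtOH kept 11.7% of the WT-con mean of *Clec2h*, 18.5% of that of *C330021F23Rik*, 46.6% of that of *Rfx4* and 57.4% of that of *Nrep*.

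In *Ahr* HKO, the log2 FC of ethanol against control was 4.79 (SE 0.607) for *Clec2h*, 2.92 (SE 0.394) for *Nrep*, 2.71 (SE 0.775) for *C330021F23Rik* and 2.33 (SE 0.975) for *Rfx4*. No gene overlapped between diets, as for 24.5% of the tested genes in this direction. The 38 other genes lowered by more than 8-fold on the control diet had a median log2 FC of 3.24 with ethanol in *Ahr* HKO and -0.65 in WT. Over all tested genes without the 4, these medians were -0.02 and 0.03. A rise of this size in *Ahr* HKO was thus not particular to the 4 genes. The *Rfx4* value was 3.85 without the *Ahr* HKO-con liver 2, the one with 30 of the reads in this group. *Ahr* HKO-EtOH reached 56.2% of the WT-con mean for *Clec2h*, 53.9% for *Nrep*, 42.2% for *C330021F23Rik* and 19.1% for *Rfx4*. *Rfx4* thus remained the gene farthest from its WT-con level in the *Ahr* HKO-EtOH livers, and *Clec2h* the one farthest from it in WT-EtOH.

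**Figure D3:**
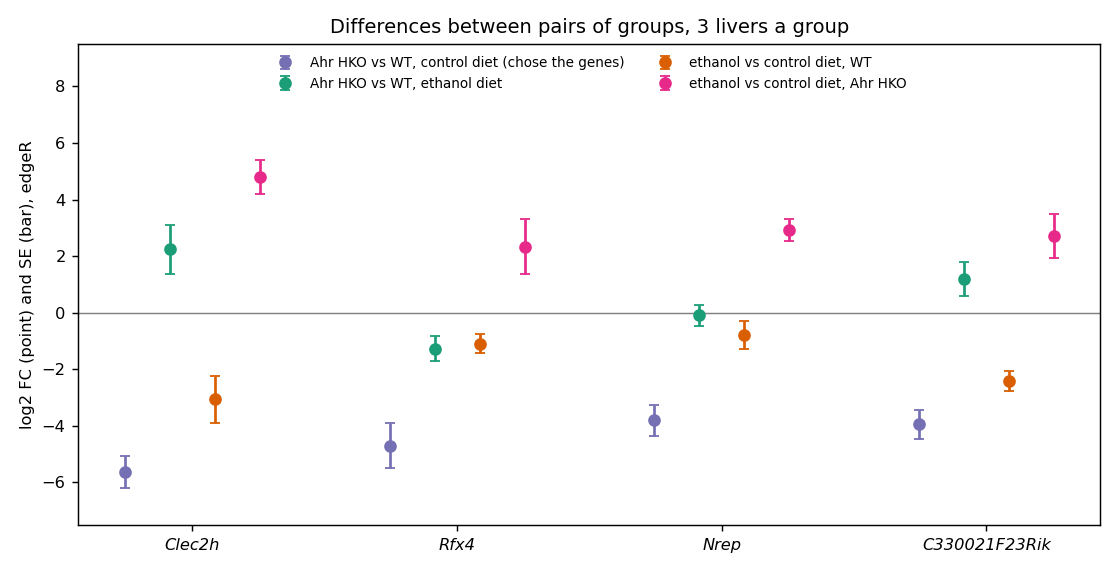
Log2 FC (points) and SE (bars) from edgeR for the 4 genes in the 4 comparisons of a pair of groups, 3 livers a group. The control-diet values, by which the genes were chosen, lie between -5.62 and -3.81, the diet values in WT between -3.06 and -0.78, the diet values in *Ahr* HKO between 2.33 and 4.79, and the ethanol-diet values on both sides of 0.

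A lower level with ethanol in WT together with a higher level with ethanol in *Ahr* HKO, each without overlap, was seen for *Clec2h*, *Rfx4* and *C330021F23Rik*. Over all tested genes 513 (3.65%) had this pattern. Among the 3388 genes that were lower in every *Ahr* HKO-con liver than in every WT-con liver, as the 4 genes are, 482 (14.2%) had it. A lower level in *Ahr* HKO on the control diet together with a higher level on the ethanol diet, both without overlap, was seen for *Clec2h* and for 549 tested genes in all (3.91%).

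The 4 genes were compared with one another over the 12 livers by the Pearson correlation of log2 CPM, given as a description. The livers fall into 4 groups, so r mostly reflects the group means, on which the choice of the genes bears. The 6 pairs had r of 0.606 (*Clec2h* and *Rfx4*) to 0.808 (*Rfx4* and *Nrep*). For deviations from the group means, r was 0.570 for *Clec2h* and *Nrep*, -0.633 for *Nrep* and *C330021F23Rik* and between -0.335 and 0.040 for the other pairs. Livers of a group that were high in one of the genes were thus not regularly high in the others.

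The genes whose pattern was most like each member were then listed, by r over the 12 livers among tested genes with a mean count of at least 50. *Clec2h* was most like *Hsd3b2*, another hydroxysteroid dehydrogenase (r = 0.966, and 0.938 for deviations from the group means), and *Nat8f1* (r = 0.920). *Hsd3b2* was 37.3 to 44.7 CPM in WT-con and 33.7 to 37.2 CPM in *Ahr* HKO-EtOH, and 10.4 to 20.3 CPM in WT-EtOH and 11.5 to 15.3 CPM in *Ahr* HKO-con. Its high and low groups were thus those of *Clec2h*, over a smaller range, and the WT-EtOH liver 1 was the lowest of its group in both genes.

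*Rfx4* was most like *Phka2*, a subunit of liver phosphorylase kinase (r = 0.955), *Zadh2* (r = 0.954) and *Brca2*, a DNA repair gene (r = 0.953). *Phka2* was 26.8 to 31.3 CPM in WT-con, 19.6 to 29.4 in WT-EtOH, 16.6 to 24.2 in *Ahr* HKO-EtOH and 9.47 to 12.9 in *Ahr* HKO-con. *Nrep* was most like *Homer2*, a scaffold protein of synapses (r = 0.958), *Adcy5*, an adenylate cyclase (r = 0.948), and *Pcsk4*, a proprotein convertase (r = 0.947). *Pcsk4* was 5.65 to 5.93 CPM in *Ahr* HKO-con and 13.2 to 25.3 CPM in the other livers.

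*C330021F23Rik* was most like *Dis3l2*, an exoribonuclease (r = 0.946), *Mzt2* (r = 0.940) and *Srebf1*, the transcription factor of fatty acid synthesis genes (r = 0.936). *Srebf1* was 297 to 358 CPM in WT-con, 84.3 to 176 in WT-EtOH, 69.7 to 86.4 in *Ahr* HKO-con and 140 to 438 in *Ahr* HKO-EtOH. Its highest *Ahr* HKO-EtOH value was in liver 1, the liver that was highest for *C330021F23Rik* as well. None of the genes named here was among the most alike of more than 1 of the 4, and their r was 0.832 to 0.970 on quantile-normalized log2(FPKM + 1).

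**Figure D4:**
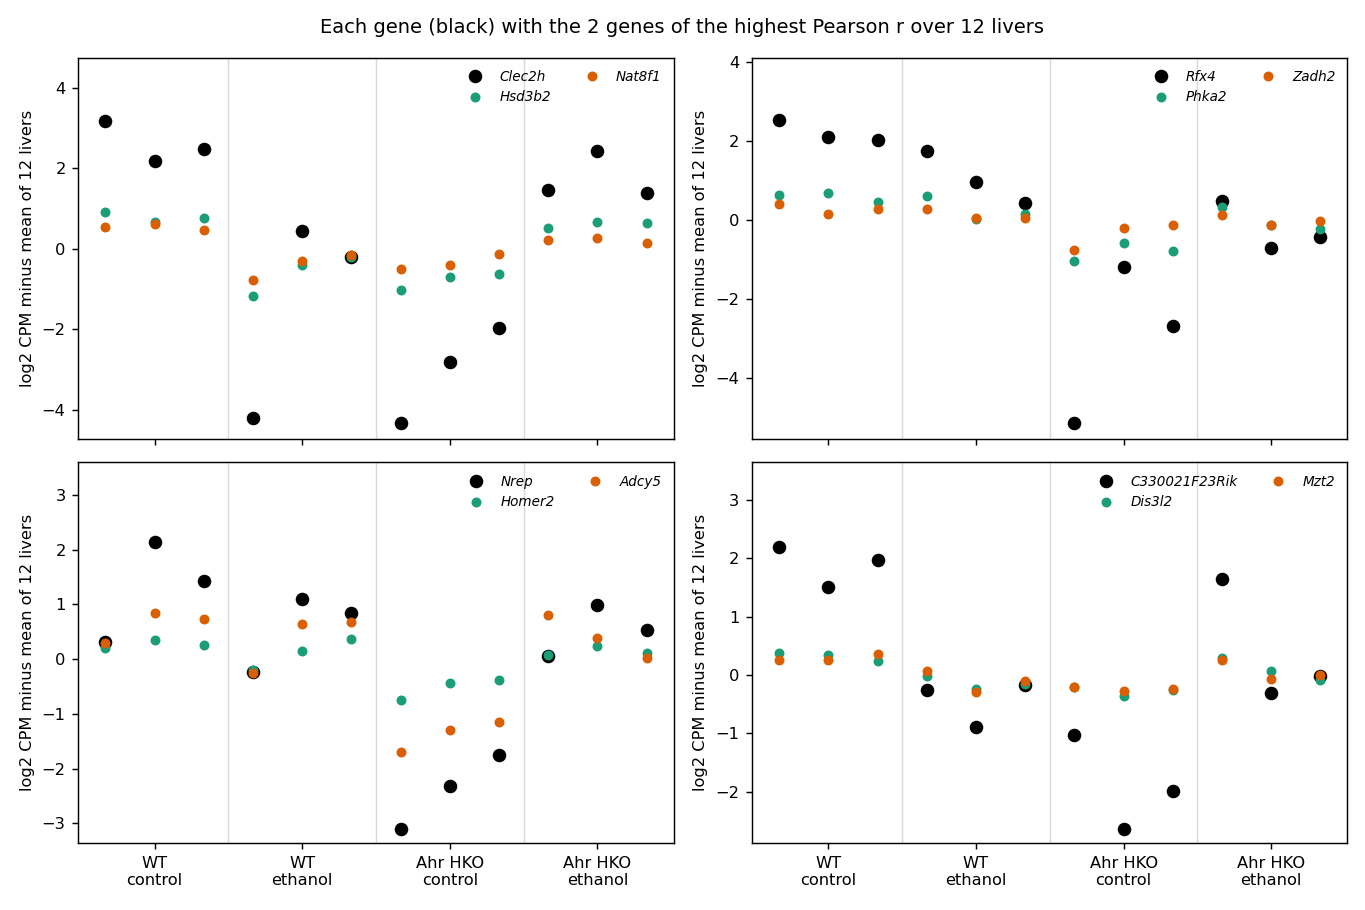
Log2 CPM minus the mean of the 12 livers (y axis) for each of the 4 genes (black) and the 2 genes of the highest Pearson r with it (colors), with the livers in the order of their replicate number within each group. *Clec2h* and *Hsd3b2* are high in WT-con and *Ahr* HKO-EtOH and low in the other groups (r = 0.966), while the genes beside *Rfx4* and *Nrep* are lowest in *Ahr* HKO-con.

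Relatives and partners of the 4 genes were examined on the ethanol diet, where 1.06% of the tested genes were called. Of the Clec2 family, *Clec2d*, the ligand of another NKR-P1 receptor, was 121 ± 26.0 CPM in *Ahr* HKO-EtOH and 78.5 ± 33.1 CPM in WT-EtOH (mean ± SD, n = 3), with a log2 FC of 0.62 (edgeR adjusted *P* = 0.297). *Clec2i* was under 1 CPM in every group, with a log2 FC of -1.06 (edgeR adjusted *P* = 0.309). *Clec2e*, *Clec2f*, *Clec2g* and *Clec2l* had 0 reads in the 12 livers. Of the NKR-P1 receptors, which are found on natural killer cells, *Klrb1b* and *Klrb1c* were tested and not called, and *Klrb1* and *Klrb1a* had 0 reads. Of these relatives, *Clec2d* was called higher with ethanol in *Ahr* HKO (log2 FC 0.93, edgeR adjusted *P* = 0.0257), in a comparison in which 10.3% of the tested genes were called in this direction. The call was lost without *Ahr* HKO-EtOH replicate 2 or 3 and without *Ahr* HKO-con replicate 2 or 3.

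Of the Rfx family without *Rfx4*, 7 genes were tested and 0 were called on the ethanol diet. The median log2 FC was 0.13, and 2 of the 7 had an unadjusted *P* value under 0.05, *Rfx1* (log2 FC 0.54, edgeR adjusted *P* = 0.197) and *Rfx5*, a regulator of MHC class II genes (log2 FC -0.56, edgeR adjusted *P* = 0.111). No share of all tested genes at that unadjusted cut is given here. *Rfx2*, *Rfx3*, *Rfx7*, *Rfxank* and *Rfxap* had log2 FCs of 0.01 to 0.18. On the control diet, where 19.9% of the tested genes were called, *Rfx1* (log2 FC 0.77, edgeR adjusted *P* = 0.00385) and *Rfxank* (log2 FC 0.64, edgeR adjusted *P* = 0.0146) were called higher in *Ahr* HKO and 0 were called lower. The call of *Rfxank* was lost with upper-quartile scaling and without *Ahr* HKO-con replicate 2, WT-con replicate 2 or WT-con replicate 3. *Rfx6* had 0 reads and *Rfx8* at most 4 in a liver.

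Of 24 ciliary genes, 0 were called on the ethanol diet and the median log2 FC was -0.05, with 2 at an unadjusted *P* value under 0.05. On the control diet 1 was called higher and 2 lower, against 19.9% of the tested genes called in either direction and 10.1% called lower. With ethanol 0 were called in WT, where 6.76% of the tested genes were called. With ethanol in *Ahr* HKO 3 were called higher and 3 lower, against 10.3% and 11.7% of the tested genes, and the 6 calls were 3 without *Ahr* HKO-con replicate 3. Of 21 measured genes of the TGF-beta pathway, 0 were called between genotypes on the ethanol diet. The median log2 FC was -0.36, against -0.01 over all tested genes, and 9 had an unadjusted *P* value under 0.05. No share of all tested genes at that cut is given here, so this count and that of the ciliary genes are not read as results. On the control diet 2 were called higher, among them *Skil*, a repressor of SMADs (log2 FC 1.06, edgeR adjusted *P* = 0.00437), and 3 lower. These counts also stand against 19.9% of the tested genes called in either direction and 10.1% called lower. With ethanol in *Ahr* HKO, 2 of the 21 were called higher and 6 lower, against 11.7% of the tested genes called lower. The latter included *Tgfb1*, the ligand (log2 FC -0.91, edgeR adjusted *P* = 0.00284), and its receptors *Tgfbr1* and *Tgfbr2*. The 8 calls were 5 without *Ahr* HKO-EtOH replicate 3 or without *Ahr* HKO-con replicate 2, and the latter fit lost *Tgfbr1*. *Nrep* itself was higher in that comparison.

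Of 12 known AhR target genes, 10 were tested. Between genotypes on the ethanol diet 1 was called, *Cyp1a2*, at 657 ± 27.6 CPM in *Ahr* HKO-EtOH and 1088 ± 112 CPM in WT-EtOH (mean ± SD, n = 3, log2 FC -0.73, edgeR adjusted *P* = 0.0433). This call was lost in 5 of the 6 leave-one-out fits, and it remained without WT-EtOH replicate 3. With ethanol in WT, 6 of the 10 were called higher and 0 lower, with a median log2 FC of 1.01, against 6.76% of the tested genes called in either direction. The count was 2 without WT-con replicate 2 and 2 without WT-con replicate 3. With ethanol in *Ahr* HKO, 4 of the 10 were called higher and 1 lower, with a median log2 FC of 1.00, against 10.3% and 11.7% of the tested genes. The 4 genes had negative log2 FCs in the first of these diet comparisons and positive ones in the other.

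Markers of liver cell types were summed beside these results. Between genotypes on the ethanol diet, 0 of the 8 Kupffer cell markers were called, and the median log2 FC was -1.14. Of these markers, 7 had an unadjusted *P* value under 0.05, without a share of all tested genes at that cut to set beside them. Their summed level was 220 to 274 CPM in *Ahr* HKO-EtOH, 348 to 879 in WT-EtOH, 384 to 506 in WT-con and 342 to 966 in *Ahr* HKO-con, and with ethanol in *Ahr* HKO 8 of 8 were called lower, against 11.7% of the tested genes. That count was 8 without *Ahr* HKO-con replicate 3 and 3 to 5 without any other single liver, the lowest without *Ahr* HKO-EtOH replicate 2. The 9 natural killer and T cell markers summed to 2.48 to 2.75 CPM in *Ahr* HKO-EtOH and to 2.34 to 5.47 CPM in the other livers, and 0 were called in any comparison. The 8 neural and glial markers summed to 2.13 to 3.62 CPM, with *Snap25* at 0 in all 12 livers and *Sox10* at 0 outside WT-con.

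The sum of the 12 stellate cell markers was 249 to 341 CPM in WT-con, 355 to 408 in WT-EtOH, 238 to 261 in *Ahr* HKO-con and 262 to 311 in *Ahr* HKO-EtOH. Endothelial markers summed to 240 to 516 CPM, and cholangiocyte markers to 45.2 to 476 CPM in *Ahr* HKO-con and 38.2 to 133 CPM in the other livers. The part of these cell types in the values of the 4 genes was not tested.

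The genes next to the 4 on their chromosomes were examined as well. On the control diet 19.9% of the tested genes were called in either direction and 10.1% were called lower, the background for the calls on that diet below. The nearest tested genes of *Rfx4*, *Polr3b* and *Ric8b*, were called in none of the 4 comparisons, and neither were *Pnpla6* and *Camsap3* beside *C330021F23Rik*. *Camsap3* begins 2461 bases beyond the end of *C330021F23Rik*. Beside *Clec2h*, *Klrb1c* was called higher in *Ahr* HKO on the control diet (log2 FC 2.01, edgeR adjusted *P* = 0.0223), from 0.158 to 0.643 CPM, against the direction of *Clec2h*, and *BC048546* was not called. The *Klrb1c* call was lost without *Ahr* HKO-con replicate 1 or 2 and without WT-con replicate 1 or 2. Beside *Nrep*, at 223157 and 330527 bases, *Stard4*, a sterol carrier protein (log2 FC -1.04, edgeR adjusted *P* = 0.00693), and *Epb41l4aos* (log2 FC -0.64, edgeR adjusted *P* = 0.0329) were called lower on the control diet, in the direction of *Nrep*. This *Epb41l4aos* call was lost in 5 of 6 leave-one-out fits, all but that without *Ahr* HKO-con replicate 3, and the *Stard4* call in none. With ethanol, *Stard4* was called lower in WT (log2 FC -0.86, edgeR adjusted *P* = 0.0403), where 6.76% of the tested genes were called in either direction. *Epb41l4aos* was called higher with ethanol in *Ahr* HKO (log2 FC 0.91, edgeR adjusted *P* = 0.00884), as were 10.3% of the tested genes. Both have the sign of *Nrep* in these comparisons. None of the neighbors was called between genotypes on the ethanol diet.

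Sequence shared with other genes could limit the counts of *C330021F23Rik* alone among the 4. Of its 5 annotated transcripts, 3 share 420 to 422 bases at 97% identity or more with *Rps23* and 8 other genes, which is 25.9% to 37.8% of their length. A pseudogene among these, *Rps23-ps2*, lies within *C330021F23Rik* on the minus strand, opposite to it. Matches were taken on either strand and their orientation was not recorded, although the libraries were stranded. *Clec2h*, *Rfx4* and *Nrep* transcripts share no stretch of 100 bases at that identity with another gene. *Rps23*, the ribosomal protein gene, had mean levels of 302 to 360 FPKM in the 4 groups, against 0.0698 to 1.17 FPKM for *C330021F23Rik*, and log2 FCs of 0.05 to 0.10 in the 4 comparisons, none of them called. How the counting assigned reads of the shared stretch is not given in the sources used here, so the level of *C330021F23Rik* is uncertain.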

How the data were processed

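RNA-seq of 12 mouse livers, 3 in each of 4 groups, was processed. Groups were taken from the genotype and diet in the labels, which name no sequencing batch. They number the livers of each group and add a liver code that lines up with these numbers between groups only in part. The labels state no pairing, so each liver was taken as independent. *P* values weigh a group difference against the spread between these livers. Poly(A) RNA was made into stranded libraries and sequenced from both ends. Per the submitters' processing notes, the tools were FastQC 0.11.7, Trimmomatic 0.38, HISAT2 2.1.0, Bowtie2 2.3.4.1 and StringTie 1.3.4d with the build mm10. The deposited read counts per gene are whole numbers without normalization. The deposited FPKM were scaled by the authors to gene length and library size, before the logarithm and quantile normalization that the methods describe. The deposited TPM values were not used.

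Counts were fitted with the quasi-likelihood test of edgeR 4.0.16 in R 4.3.3, after filterByExpr over the 4 groups. TMM factors were recomputed for the 6 libraries of each comparison, and *P* values were corrected (Benjamini-Hochberg) over all 14038 tested genes. A gene was called when its adjusted *P* was under 0.05 and its FC above 1.5. CPM were scaled with TMM factors over all 12 libraries (0.925 to 1.16). Intervals are 95% confidence intervals of the coefficients, and the limit of 3 counts covers counting error only. No test is given for the 4 genes where a comparison shares livers with the contrast that chose them. The scripts were tested on simulated data with known fold changes.

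The 4 genes and the lists were chosen with earlier results of these data known. Also named were the 3 genes most like each of the 4 by Pearson r of log2 CPM (prior count 2) with a mean count of at least 50, the genes next to them in the control-diet ranking, the tested members of the Clec2 and Rfx families, listed genes called on the ethanol diet (at most 4 a list), *Ahr* and the neighboring genes. Some genes that this rule covers are not reported here. Genes of the TGF-beta pathway and *Clec2d*, *Rfx1*, *Rfxank*, *Cyp7a1* and *Rps23* in other comparisons, and single markers, were named after their values were seen. Gene positions came from RefSeq and GENCODE annotation of GRCm38 by identifier, and shared sequence from blastn. Alternatives were DESeq2 1.42.0, upper-quartile scaling, no filter, a minimum of 10 counts, all 12 libraries in 1 fit, a block for the replicate number, limma 3.58.1 on quantile-normalized log2(FPKM + 1) or log2(FPKM + 0.1), and leaving out each liver.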

Additional observations from a re-analysis of the deposited data

Results flagged for a closer look

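*Clec2h*, *Rfx4* and *C330021F23Rik* had diet effects of opposite sign in the genotypes, each without overlap between livers. For *Clec2h* the log2 FC of ethanol against control was -3.06 in WT and 4.79 in *Ahr* HKO, for *Rfx4* it was -1.10 and 2.33, and for *C330021F23Rik* it was -2.42 and 2.71. The genotype effect of *Clec2h* had opposite signs on the diets as well, at -5.62 on the control diet and 2.25 on the ethanol diet. The value of 2.25 used none of the livers that chose the genes and was not called (edgeR adjusted *P* = 0.203). The other effects, and the differences between effects, were not tested. Each of those holds livers that chose the genes, and that choice favors the pattern. The 38 other genes lowered by more than 8-fold on the control diet had median diet log2 FCs of -0.65 in WT and 3.24 in *Ahr* HKO. No group was examined for single outlying livers, since each holds 3.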

How the results depend on the processing

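On the ethanol diet, none of the 4 genes was called under any alternative, and adjusted *P* values were 0.101 to 0.415 for *Clec2h*, 0.057 to 0.409 for *Rfx4*, 0.467 to 0.992 for *Nrep* and 0.234 to 0.778 for *C330021F23Rik*. *Nrep* changed sign without *Ahr* HKO-EtOH replicate 1 (0.12) and without WT-EtOH replicate 2 (0.20), within a leave-one-out range of -0.40 to 0.20. The minimum of 10 counts removed the other genes and gave them no value. With limma on log2(FPKM + 1), which shrinks low values by its construction, the control-diet log2 FC was -2.56 for *Clec2h*, -1.17 for *Rfx4*, -2.20 for *Nrep* and -0.995 for *C330021F23Rik* (-2.86 with log2(FPKM + 0.1)), and the diet log2 FC was -0.55 for *Rfx4* and -0.84 for *C330021F23Rik* in WT, and 1.89 for *Clec2h*, 0.30 for *Rfx4*, 1.59 for *Nrep* and 0.48 for *C330021F23Rik* in *Ahr* HKO, where log2(FPKM + 0.1) gave 1.70 for *C330021F23Rik*. The diet log2 FC of *Rfx4* in *Ahr* HKO was 1.73 to 3.85 in leave-one-out fits. On the ethanol diet edgeR called 149 genes, DESeq2 called 1045, the fit of all 12 libraries 429, the replicate block 243, and limma 93 with a pseudocount of 1 and 68 with 0.1, against 7 to 189 in leave-one-out fits (7 without *Ahr* HKO-EtOH replicate 3, 22 and 23 without WT-EtOH replicates 1 and 2, 32 without *Ahr* HKO-EtOH replicate 2); the cause was not tested. Deviations of same-numbered livers correlated at -0.142 to 0.287 over the 4 comparisons. Between genotypes on the ethanol diet they correlated at 0.287, 0.194 and -0.007, against -0.268 to 0.067 for livers of other numbers. The labels state no pairing, so the numbers were not taken as pairs, but a pairing on this diet is not excluded. With the replicate block log2 FCs on the ethanol diet were 2.65 for *Clec2h*, -1.28 for *Rfx4*, -0.04 for *Nrep* and 0.96 for *C330021F23Rik*, with no call of these genes changed. The SE of *Rfx4* fell from 0.446 to 0.261 with the block (edgeR adjusted *P* = 0.0764). The replicate block also lost the calls of *Klrb1c* and *Epb41l4aos* (on the control diet), *Clec2d* (with ethanol in *Ahr* HKO) and *Cyp1a2* (on the ethanol diet). It left 3 of 8 Kupffer cell markers called, in a check of single genes added after seeing the data. Levels under 1 CPM rest on few reads, and 3 livers a group limit every comparison.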
